A study of Arabidopsis thaliana with 18 samples.

Results

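In the root of Arabidopsis seedlings, a set of 100 genes had its highest mean level without phosphate, a lower one at control phosphate and its lowest at excess phosphate. The set was led by BAM5, a beta-amylase, and by NAC042, a transcription factor, and its members included WRKY40, STZ, ERF11, ERF13, MYB15, CBP60G and CYP81F2, genes known from stress and defence. All 9 root arrays entered the choice of the set, so the root values are given as a description with no test. The shoot arrays did not enter it. In shoot, 67 of the 100 genes rose without phosphate, where 6.12% of all rows were called higher. None of the 100 was called at excess phosphate in the fit to all arrays. With replicate 3 at the control and excess supplies left out in both root and shoot, 26 were called lower, where 1.62% of all rows were. Replicate 3 at excess phosphate was singled out after it had read high for these same genes, so the 26 are a description. With the shoot array of replicate 3 at excess phosphate alone left out, it was 6.

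Wild-type seedlings of the Col-0 accession were grown in hydroponic medium with sucrose for 5 days and then moved for 7 days to no phosphate (0 mM, P0), to the control supply of 1.25 mM (P1.25) or to an excess of 20 mM (P20). Roots and shoots were analysed apart on Affymetrix AraGene 1.0 ST arrays, which carry probes along the whole of each transcript. Each tissue had 3 arrays at each supply, 18 in all, and the methods describe the replicates as independent biological experiments. The arrays hold whole organs, so fewer cells of a type and less RNA per cell cannot be told apart.

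The genes were chosen by a score, the smaller of the steps P0 minus P1.25 and P1.25 minus P20 between the root group means of the log2 intensity. A row of the array entered if it had exactly 1 gene, and 1 row was kept per gene. Of 38408 rows, 17853 had 1 gene, these gave 17673 genes, and 17646 were ranked after 27 members of the SPX, PHT1 and purple acid phosphatase families and their named companions had been set aside. The 100 highest scores made the set. The platform table named 60 of its members and the study's own tables named the other 40. Those tables list genes by their change at P0, so P0 values of the 40 are not independent of how they were named, and counts are given for the 60 as well. Every member was annotated as protein-coding, 53 of the 100 had a locus identifier but no symbol, and 19 of these 53 were listed as hypothetical proteins. The members lay on all 5 chromosomes, 27, 16, 14, 22 and 21 of them on chromosomes 1 to 5, where 25.8%, 15.3%, 20.4%, 14.8% and 23% of the ranked genes lay. Only AT4G22485 with AT4G22490 and AT4G27654 with AT4G27657 were direct neighbours.

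The last genes inside the limit were UCP5 with a score of 0.56, PRA1.B5 with 0.56 and AT2G26695 with 0.56, and the first outside were G3Pp3 with 0.55, JAZ5 with 0.55 and AT3G25240 with 0.55. The score thus falls smoothly across the limit and marks no break between members and other genes. Of the genes set aside by name, 5 had scores that would have placed them. These were AT4, a non-coding RNA that sequesters miR399, with 1.92, the phosphate sensor SPX1 with 1.33, the phosphate transporter PHT1;4 with 0.79, NSP3 with 0.78 and the glycerophosphodiester phosphodiesterase SRG3 (GDPD1) with 0.56.

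Plants short of phosphate scavenge it from lipids and nucleic acids, send more of it into the shoot, release organic acids from the root and store carbon as starch and sugar. Many genes of these steps are switched on by the transcription factor PHR1, which SPX proteins hold back while phosphate is plentiful. A separate class of plant genes answers touch, wounding, chilling and microbial signals within minutes, through calcium and jasmonate, salicylate and ethylene signalling. WRKY40, STZ, the ERF factors and the CAF1 deadenylases are known members of that class.

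Averaged over the 100 genes, the level in root was 8.06 ± 0.04 at P0, 6.31 ± 0.14 at P1.25 and 5.54 ± 0.71 at P20 on the log2 scale (SD of the array means, n = 3 each). In shoot it was 7.68 ± 0.005 at P0, 6.17 ± 0.24 at P1.25 and 5.92 ± 0.65 at P20. The P0 arrays lay close together in both tissues, and the wide spread at P20 came with a single array in each. In root the array means at P20 were 5.17, 5.09 and 6.36, and the last of these, replicate 3, lay between the P1.25 arrays at 6.35, 6.43 and 6.16. In shoot the array means at P20 were 5.60, 5.5 and 6.67, against 6.05, 6.02 and 6.45 at P1.25, so replicate 3 was the highest array at both supplies. The median of all rows differed little between the arrays, at 5.44 to 5.66.

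**Figure D1:**
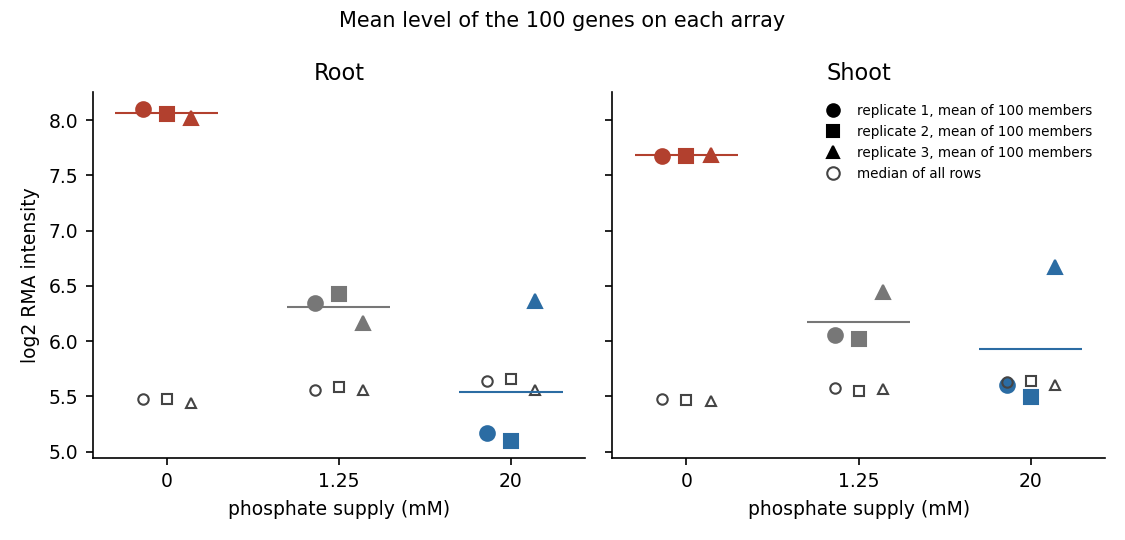
Mean log2 RMA intensity of the 100 genes on each array (filled symbols, 1 per array; bar, mean of the 3 arrays) in root and shoot at 0, 1.25 and 20 mM phosphate, with the median of all rows as open symbols. The P0 arrays sit together at about 8.06 in root and 7.68 in shoot, and replicate 3 at P20 stands above the other P20 arrays in both tissues.

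Replicate 3 at P20 stood apart for most of the set. In root it was the highest P20 array for 92 of the 100 genes (34.5% of all rows), above the mean of the P1.25 arrays for 56 (49% of all rows) and above every P1.25 array for 35 (26.1% of all rows). In shoot it was the highest P20 array for 86 genes (34.8% of all rows) and above the mean of the P1.25 arrays for 72 (47% of all rows). For 81 genes it was the highest P20 array in both tissues, as it was for 14.9% of all rows. Its median distance above the mean of replicates 1 and 2 was 1.33 in root and 1.05 in shoot, against medians over all rows of -0.04 and -0.05. At P0 the same distance had a median of -0.05 in root and 0.01 in shoot. At P1.25 it was -0.36 in root and 0.35 in shoot, against 0.02 and 0.02 over all rows. Replicate 3 thus stood apart most at P20, less and in opposite directions at P1.25, and not at P0. What set these arrays apart was not tested. For the genes the account turns on, P20 values are therefore given by array. The counts of the set called in shoot are given with and without replicate 3 at P1.25 and P20, left out in both tissues.

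**Figure D2:**
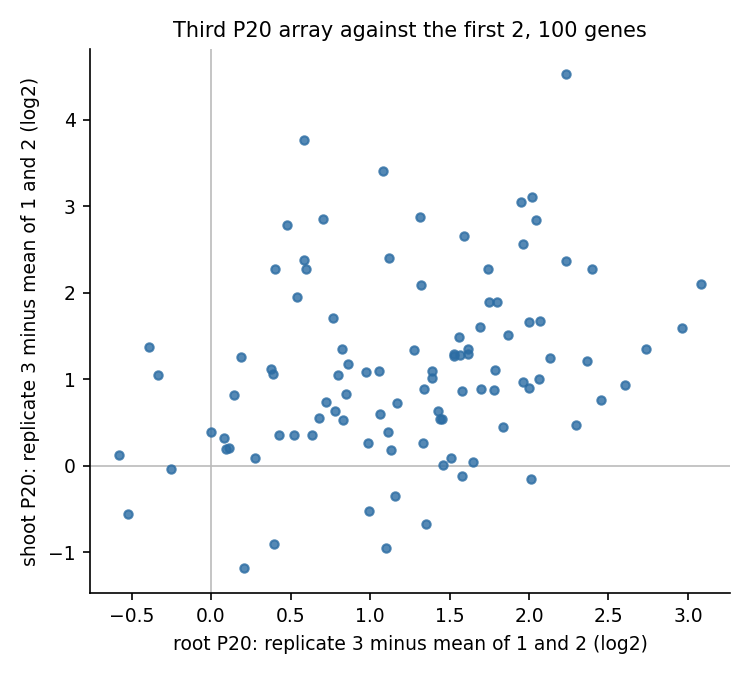
For each of the 100 genes (points), the log2 distance of the third P20 array above the mean of the other P20 arrays, in root (horizontal axis) and shoot (vertical axis). Most points lie in the upper right, with 87 of 100 genes above 0 on both axes.

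The larger step of the set was the one between P0 and P1.25. Root P0 minus P1.25 had a median of 1.73 and ran between 0.58 and 4.40, against a median of -0.09 over all rows, and it was above 2-fold for 86 genes and above 4-fold for 32. Root P1.25 minus P20 had a median of 0.71 and ran between 0.56 and 1.81, against -0.01 over all rows, and it was above 2-fold for 13. This second step was the smaller for 95 genes and so set their score. It was the smaller P0 step that set the score of AT3G61390, AT4G22214, IGMT3, PPCK2 and MC7.

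Replicates separated the P0 arrays well and the P20 arrays poorly. The 3 root P0 arrays all lay above the 3 P1.25 arrays for 95 genes (15.5% of all rows), and the 3 P1.25 arrays all lay above the 3 P20 arrays for 23 (4.83% of all rows). These 23 genes had all 9 root arrays in order, as did 0.604% of all rows, and among them were PPCK2, G3Pp1, ALMT1, PFA-DSP1, PBS3, PROPEP2, CRK39, CSLG2 and MC7. With replicates 1 and 2 alone, both P1.25 arrays lay above both P20 arrays for 95 genes (18.9% of all rows). Without replicate 3 at P1.25 and P20, root P1.25 minus P20 had a median of 1.24, was above 0 for all 100 genes and above 2-fold for 71. It was larger than in all arrays for 90 genes, with BAM5, at 1.19 in place of 1.81, among the 10 others. In the fit across all rows, 81 members passed the limits at P0 in root, where 4.69% of all rows were called higher, and 0 members passed at P20, where 0.00781% of all rows were called lower. Nothing is read from these root calls, since the same arrays chose the genes.

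**Figure D3:**
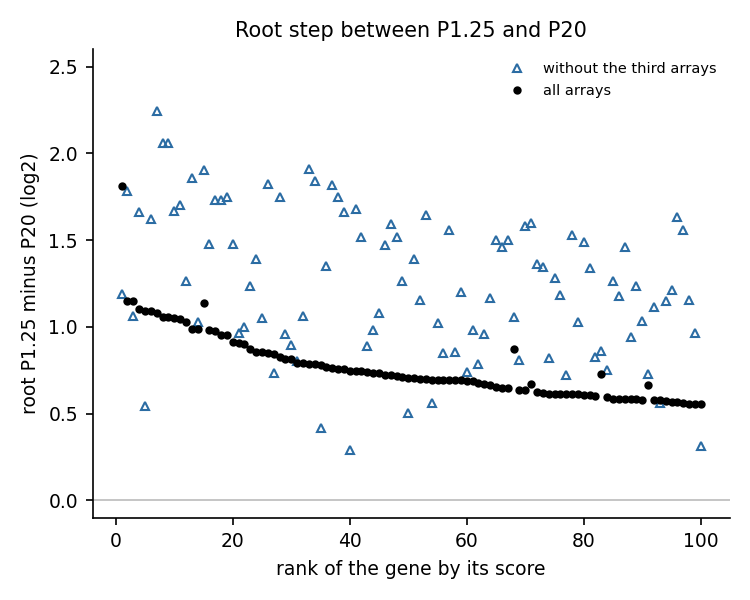
Root P1.25 minus P20 on the log2 scale for the 100 genes in the order of their score, from all arrays (points) and without replicate 3 at P1.25 and P20 (triangles). All triangles lie above 0, with a median of 1.24 against 0.71 for the points.

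The spread between replicates followed the same order. The SD of the 3 arrays had a median over the set of 0.09 at P0, 0.42 at P1.25 and 0.77 at P20 in root, against 0.17, 0.21 and 0.22 over all rows. In shoot it was 0.08, 0.37 and 0.63, against 0.15, 0.26 and 0.24 over all rows. At P0 the members thus had a lower median SD than all rows, and at P1.25 and P20 a higher one. Rows were not matched by level, and at P0 the members lay well above the median of all rows. The P0 SD was the smallest of the 3 treatments for 88 members in root (43.5% of all rows) and for 90 in shoot (53.5% of all rows).

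To describe the set, 59 members with a symbol or a descriptive annotation were sorted into groups by known role after their names had been seen, and 41 were left by locus identifier. The groups carry no test, and their counts called in shoot at P0 stand beside 67 of 100 for the whole set and 6.12% of all rows.

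Carbon metabolism held the highest score. BAM5 encodes a beta-amylase that cleaves maltose from starch-like glucans and is known mainly from phloem. In root it read 10.85, 10.96 and 10.86 at P0, 4.94, 6.67 and 7.88 at P1.25, and 5.13, 4.10 and 4.82 at P20. The P0 arrays stood far above the rest, the P1.25 arrays spanned almost 3 log2 units, and replicate 1 at P1.25 lay below replicate 1 at P20. In shoot BAM5 read 13.34, 13.30 and 13.29 at P0, 10.11, 9.07 and 9.40 at P1.25, and 7.87, 7.84 and 6.67 at P20, with no overlap between any of the 3 supplies. It rose by 3.78 ± 0.55 (SE) in shoot at P0 (adjusted p = 0.000151), and P20 minus P1.25 was -2.06 ± 0.55 with an adjusted p of 0.325. This was the lowest P20 value of the set in shoot.

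GPT2, a plastid transporter that exchanges glucose 6-phosphate for phosphate, read 8.54, 8.44 and 8.49 in root at P0, 5.71, 7.74 and 7.11 at P1.25 and 5.58, 5.33 and 6.56 at P20. The root P1.25 and P20 arrays overlapped. In shoot it read 12.53, 12.53 and 12.56 at P0, 10.35, 10.85 and 9.91 at P1.25 and 10.64, 10.68 and 9.71 at P20, and it rose by 2.17 ± 0.44 at P0 (adjusted p = 0.00182) with a difference of -0.02 at P20. CT-BMY, a beta-amylase of the plastid that breaks down leaf starch at night, had a root P0 minus P1.25 of 1.51 and was at 9.58, 9.63 and 9.63 in P0 shoot, against 9.82, 9.75 and 9.44 at P1.25. Its shoot difference of -0.06 ± 0.28 lay within the spread of the arrays, so these beta-amylase genes differed in what was measured in shoot, although the difference between them was not tested.

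PPCK2 encodes the kinase of phosphoenolpyruvate carboxylase, an enzyme that feeds organic acid synthesis. In root it had an even descent, at 7.43, 7.39 and 7.48 at P0, 7.05, 6.80 and 6.67 at P1.25 and 6.12, 6.0 and 6.21 at P20, with small spread at each supply. Its shoot arrays read 8.26, 8.26 and 8.21 at P0, 4.04, 4.26 and 5.04 at P1.25 and 3.85, 3.78 and 4.64 at P20. The shoot step at P0, 3.80 ± 0.24 (adjusted p = 6.04e-08), stood beside a root step of 0.59, and the P20 arrays overlapped with those at P1.25.

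Membrane transport was a group of 6 genes, all of which rose in shoot at P0, by 1.98 to 2.90 (6.12% of all rows, 67 of the whole set of 100). G3Pp1 belongs to the glycerol 3-phosphate permease family, whose founding members were described in bacteria. It read 9.29, 9.23 and 9.24 in root at P0, 5.67, 5.84 and 6.47 at P1.25 and 5.18, 5.33 and 5.35 at P20. The shoot readings were 10.08, 9.96 and 9.98 at P0, 6.86, 6.67 and 7.80 at P1.25 and 5.78, 5.5 and 5.83 at P20. Neither tissue had an overlap between supplies, and replicate 3 at P20 did not stand out for this gene in shoot. G3Pp1 rose by 2.90 ± 0.24 in shoot at P0 (adjusted p = 1.19e-06), and P20 minus P1.25 was -1.41 ± 0.24 with an adjusted p of 0.105, just short of the limit of 0.1. It passed that limit under 11 of 22 alternatives.

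ALMT1, a malate channel of the plasma membrane that releases malate from root tips, read 8.52, 8.44 and 8.22 in root at P0, 6.25, 5.86 and 5.64 at P1.25 and 5.29, 5.20 and 5.35 at P20. All 9 root arrays were in order, and replicate 3 at P20 was close to the others. In shoot it rose by 2.04 ± 0.17 at P0 (adjusted p = 1.17e-06), with 6.10, 5.87 and 5.94 against 4.01, 4.16 and 3.63 at P1.25.

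DIC2 and UCP5 are dicarboxylate carriers of the inner mitochondrial membrane, and both followed replicate 3 at P20. DIC2 read 10.49, 10.41 and 10.29 in root at P0, 8.70, 8.54 and 7.91 at P1.25 and 6.48, 6.65 and 8.86 at P20, so that replicate 3 at P20 was above every P1.25 array. UCP5 read 9.34, 9.36 and 9.32 at P0, 7.90, 7.67 and 7.38 at P1.25 and 6.69, 6.57 and 8.02 at P20, with the same array out of place. In shoot DIC2 rose by 1.98 ± 0.52 (adjusted p = 0.00969) and UCP5 by 2.00 ± 0.40 (adjusted p = 0.00166) at P0. CHX17, a cation and proton exchanger, read 9.10, 9.16 and 9.01 in root at P0, 6.78, 7.13 and 6.92 at P1.25 and 5.54, 4.90 and 7.46 at P20. On the shoot arrays it stood at 8.39, 8.48 and 8.62 at P0, against 6.28, 6.47 and 6.22 at P1.25, and 4.70, 4.36 and 9.06 at P20. CHX17 was called higher in shoot at P0, by 2.18 ± 0.90 (adjusted p = 0.0823). This call was lost when any single P0 or P1.25 shoot array was left out, with adjusted p of 0.138 to 0.163. It was also lost with the replicate number as a block in the 9 shoot arrays (0.153). The difference itself stayed at 2.12 to 2.25 with an array left out. The SE pools the spread of all groups, and the SD in shoot was 0.12 at P0, 0.13 at P1.25 and 2.62 at P20. The glutamate receptor gene ATGLR1.2 was the other member of the group.

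A phosphatase and Nudix hydrolases made a group of 3 genes, from which the rule had kept purple acid phosphatases and GDPD1 out. AT4G08260, annotated as a putative protein phosphatase 2C, was counted among the genes known by locus. PFA-DSP1 belongs to the plant and fungal atypical dual-specificity phosphatases, which cleave inositol pyrophosphates. It read 7.57, 7.41 and 7.48 in root at P0, 6.46, 5.78 and 6.06 at P1.25 and 5.35, 5.42 and 4.99 at P20. In shoot it read 8.22, 8.23 and 8.28 at P0, 3.42, 4.57 and 4.43 at P1.25 and 4.2, 4.34 and 5.64 at P20. Its shoot rise at P0 of 4.10 ± 0.34 (adjusted p = 1.07e-06) was the highest of the set, and its P20 minus P1.25 of 0.58 in shoot was not called. The Nudix hydrolases NUDT4 and NUDT21, of a family that splits compounds of a nucleoside diphosphate, had root P0 minus P1.25 of 1.69 and 1.15 and root P1.25 minus P20 of 0.76 and 0.64. NUDT4 was called higher in shoot at P0 (1.17 ± 0.46, adjusted p = 0.0674), a call lost without any 1 of the 3 P0 arrays or without replicate 1 or 2 at P1.25 (adjusted p of 0.122 to 0.18). NUDT21, at 0.93 ± 0.38, was below the 2-fold limit.

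**Figure D4:**
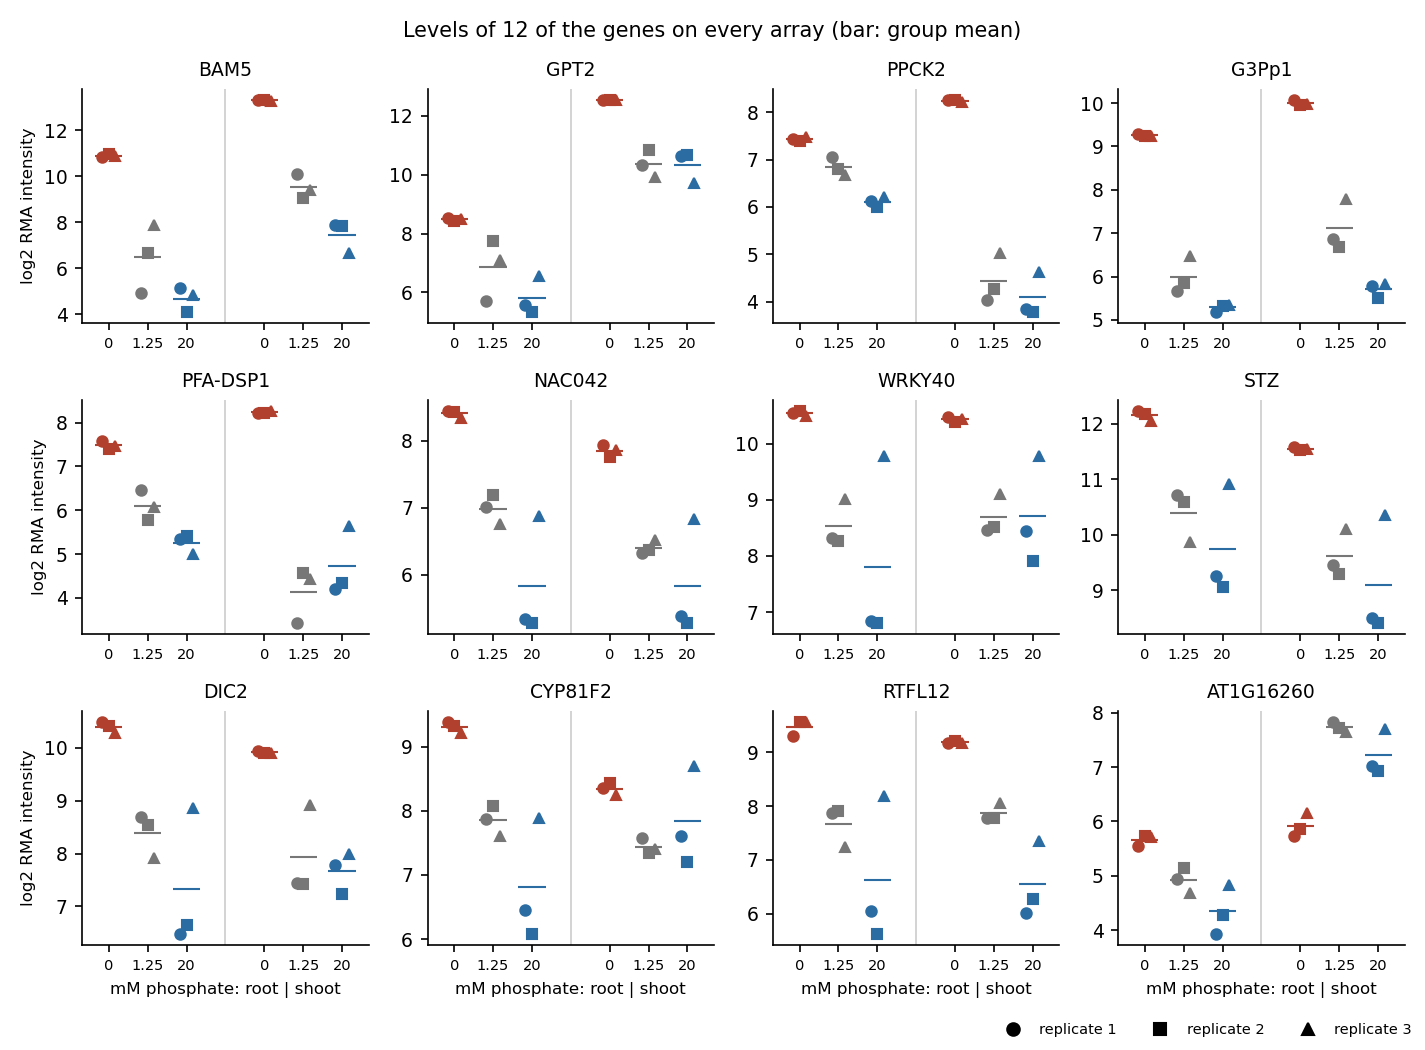
Log2 RMA intensity of 12 of the genes on every array (symbols, 1 per replicate; bar, group mean), with root on the left and shoot on the right of each panel at 0, 1.25 and 20 mM phosphate. PPCK2 descends in root with little spread, and G3Pp1 has no overlap between supplies in either tissue. Replicate 3 at P20 stands high for NAC042, WRKY40, STZ, DIC2, CYP81F2 and RTFL12, and AT1G16260 has its lowest shoot levels at P0.

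Transcription factors numbered 10, and 8 of them rose in shoot at P0 (6.12% of all rows, 67 of the whole set of 100). Their root P0 minus P1.25 ran between 1.29 and 2.86 and root P1.25 minus P20 between 0.58 and 1.15. Replicate 3 at P20 was the highest root P20 array for all 10 and above the P1.25 mean for 8. NAC042, a NAC factor known as an answer to hydrogen peroxide and a brake on leaf ageing, had the second highest score. It read 8.45, 8.43 and 8.34 in root at P0, 7.01, 7.20 and 6.75 at P1.25 and 5.34, 5.29 and 6.87 at P20. Its shoot arrays read 7.93, 7.76 and 7.86 at P0, 6.32, 6.37 and 6.52 at P1.25 and 5.39, 5.28 and 6.83 at P20, the same shape with the same array out of order. NAC042 rose by 1.45 ± 0.39 in shoot at P0 (adjusted p = 0.0124).

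WRKY40, a repressor of defence and abscisic acid responses, read 10.54, 10.59 and 10.50 in root at P0, 8.33, 8.26 and 9.01 at P1.25 and 6.84, 6.81 and 9.78 at P20. STZ, a zinc finger repressor of the salt and cold response, read 12.23, 12.17 and 12.05 at P0, 10.72, 10.60 and 9.88 at P1.25 and 9.26, 9.06 and 10.91 at P20. For both genes replicate 3 at P20 was above every P1.25 array, and replicates 1 and 2 were below every P1.25 array. In shoot at P0 STZ rose by 1.93 ± 0.50 (adjusted p = 0.00918). WRKY40 was called at 1.74 ± 0.62 (adjusted p = 0.0466), and its call was lost without P0 replicate 1 (adjusted p = 0.101) or without P1.25 replicate 1 or 2 (0.12 and 0.114).

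The 4 members of the ethylene response factor family were ERF11, ERF13, RRTF1 and AT5G51190, which is annotated as ERF105. ERF11 read 8.57, 8.66 and 8.16 in root at P0, 5.96, 5.71 and 5.65 at P1.25 and 4.41, 4.48 and 6.31 at P20. ERF13 read 8.56, 8.72 and 8.44 at P0, 6.27, 6.35 and 5.75 at P1.25 and 4.87, 4.11 and 7.09 at P20. RRTF1 read 7.04, 7.14 and 7.07 at P0, 5.16, 5.02 and 5.33 at P1.25 and 3.96, 3.84 and 5.86 at P20. All of them rose in shoot at P0, ERF11 by 1.71 ± 0.49 (adjusted p = 0.016), ERF13 by 2.06 ± 0.53 (adjusted p = 0.00893), RRTF1 by 1.62 ± 0.46 (adjusted p = 0.0157) and AT5G51190 by 2.17 ± 0.37 (adjusted p = 0.0005).

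MYB15, a factor of cold tolerance and lignin-based immunity, had the widest root P0 step of the group, with 8.97, 9.05 and 8.80 at P0, 6.06, 6.08 and 6.11 at P1.25 and 4.66, 4.80 and 6.97 at P20. It rose by 2.48 ± 0.59 in shoot at P0 (adjusted p = 0.00579). CBP60G, which drives salicylic acid synthesis, and AT2G22760, annotated as bHLH19, were not called in shoot. CBP60G read 7.13, 7.15 and 7.07 in P0 shoot, against 6.31, 6.72 and 7.09 at P1.25, and AT2G22760 read 4.93, 5.15 and 4.80, against 3.91, 4.10 and 4.60.

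CAF1a and CAF1b shorten the poly(A) tails of mRNAs and are known to be induced by stress. CAF1a read 6.61, 6.41 and 6.46 in root at P0, 5.22, 4.96 and 3.90 at P1.25 and 3.82, 3.32 and 4.68 at P20, and CAF1b read 7.66, 7.55 and 7.58, then 6.12, 6.25 and 5.12, and then 4.71, 4.67 and 6.27. Replicate 3 was thus the lowest P1.25 array and the highest P20 array for both. In shoot at P0 CAF1a rose by 1.40 ± 0.35 (adjusted p = 0.00801) and CAF1b by 1.59 ± 0.42 (adjusted p = 0.0109). Replicate 3 was the lowest root P1.25 array for 60 of the 100 genes, against 36.4% of all rows.

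Calcium was represented by TCH2, a touch-induced calmodulin-like protein, the EF-hand protein AT4G27280, and AT3G63380, a calcium pump. TCH2 read 9.28, 9.32 and 9.33 in root at P0, 8.27, 8.08 and 7.53 at P1.25 and 7.07, 6.93 and 8.13 at P20. In shoot its difference at P0 was 0.96 ± 0.25 (adjusted p = 0.0094), below the 2-fold limit, and AT4G27280 rose by 1.90 ± 0.37 (adjusted p = 0.00157).

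Immune and stress signalling held 9 genes, of which 5 rose in shoot at P0 (6.12% of all rows, 67 of the whole set of 100). They were the peptide precursor PROPEP2, the cell death inhibitor BAP1, the ubiquitin ligase CNI1, the TIR-NBS protein AT1G72890 and the VQ protein AT2G22880. PBS3, which conjugates an amino acid on the route to salicylic acid, PUB54, CRK39 and HSPRO2 were not called. PBS3 read 7.32, 7.15 and 7.09 in root at P0, 4.60, 5.39 and 4.84 at P1.25 and 3.95, 4.07 and 4.60 at P20, where replicate 3 all but met the lowest P1.25 array. The shoot readings were 6.63, 6.95 and 6.81 at P0, 5.13, 6.29 and 6.0 at P1.25 and 4.51, 4.36 and 8.20 at P20, where replicate 3 was the highest of the 9 arrays. AT1G72890 had little spread, with 7.46, 7.43 and 7.46 in P0 shoot, 5.71, 5.49 and 5.39 at P1.25 and 4.91, 4.85 and 4.97 at P20.

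Enzymes of specialised metabolism numbered 8, of which 5 rose in shoot at P0 (6.12% of all rows, 67 of the whole set of 100). CYP81F2, which hydroxylates indole glucosinolates, read 9.39, 9.32 and 9.21 in root at P0, 7.87, 8.07 and 7.62 at P1.25 and 6.46, 6.08 and 7.88 at P20. On the shoot arrays it stood at 8.36, 8.43 and 8.25 at P0, 7.57, 7.34 and 7.40 at P1.25 and 7.61, 7.20 and 8.69 at P20, and its P0 difference of 0.91 ± 0.39 stayed below the 2-fold limit. CYP81D1, of the same family, was called at 1.25 ± 0.39 (adjusted p = 0.0257), a call lost without P1.25 replicate 2 (adjusted p = 0.105). CYP71A12, an enzyme of indolic defence compounds, rose by 2.12 ± 0.67 (adjusted p = 0.0266), with 4.55, 4.28 and 4.73 at P0, against 2.47, 2.31 and 2.43 at P1.25. IGMT3, of the indole glucosinolate methyltransferases, had overlapping root arrays at P0 and P1.25, with 5.52, 5.46 and 5.15 at P0 and 5.88, 5.47 and 2.89 at P1.25. Its root P0 step of 0.63 rested on P1.25 replicate 3 and was -0.30 without it. For no other member did that step fall below 0 without replicate 3. In shoot IGMT3 was called at 1.35 ± 0.58 (adjusted p = 0.0923). Of the glycosyltransferases, UGT84A2, which glucosylates sinapic acid, rose by 2.55 ± 0.31 (adjusted p = 3.93e-05) and AT2G36970 by 2.81 ± 0.40 (adjusted p = 0.000124).

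Secreted and cell wall proteins numbered 6, of which 4 rose in shoot at P0 (6.12% of all rows, 67 of the whole set of 100), namely CSLG2, the extensin-like AT1G26240, the metalloproteinase MMP and AT2G15220. The lipid-transfer-type neighbours AT4G22485 and AT4G22490 were not called. AT4G22490 read 6.58, 6.41 and 6.34 in root at P0, 3.04, 4.18 and 6.61 at P1.25 and 3.23, 2.91 and 4.42 at P20, and AT4G22485 read 6.48, 6.65 and 6.67, then 3.95, 4.14 and 7.06, and then 4.12, 3.39 and 5.40. Here replicate 3 was the highest array at P1.25 and at P20, and at P1.25 it was above every P0 array. In shoot the difference at P0 was 1.39 ± 0.64 for AT4G22490 and 0.88 ± 0.64 for AT4G22485, and for both every P0 array lay above the P1.25 arrays. The SE pools all groups, and the root P1.25 SD was 1.83 and 1.75. AT4G22490 passed the limits under 7 of 22 alternatives. Among them were the fit to the 9 shoot arrays alone (adjusted p = 0.00806) and those with the replicate number as a block. AT4G22485 kept its result under all 22. Probes of related neighbouring genes can share signal, although their rows did not hold identical values.

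The other neighbouring pair has no assigned function. AT4G27654 read 7.18, 6.96 and 7.04 in root at P0, 6.11, 6.28 and 5.15 at P1.25 and 3.75, 4.15 and 6.40 at P20, and AT4G27657 read 8.24, 8.35 and 8.13, then 6.81, 6.36 and 5.84, and then 5.01, 4.80 and 6.97. AT4G27654 had the widest root P1.25 minus P20 of the set without replicate 3, at 2.25. In shoot AT4G27654 rose by 2.38 ± 0.64 at P0 (adjusted p = 0.011). AT4G27657 was called at 1.2 ± 0.50 (adjusted p = 0.0854), and the call was lost without any 1 of the P0 arrays or without P1.25 replicate 1 or 2 (adjusted p of 0.134 to 0.274), and with the replicate number as a block in all 18 arrays (0.1).

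Of the redox enzymes, MSRB8, a methionine sulfoxide reductase, and AT4G33040, annotated as glutaredoxin-C6, both rose in shoot at P0, the second by 2.88 ± 0.46 (adjusted p = 0.00032). AT5G63130, a protein with a Phox and Bem1p domain, read 8.70, 8.68 and 8.69 in root at P0, 7.03, 6.95 and 6.25 at P1.25 and 5.20, 5.54 and 6.22 at P20. It rose by 3.39 ± 0.33 in shoot at P0 (adjusted p = 4.69e-06), with 9.87, 9.96 and 9.95 against 6.26, 6.07 and 7.27 at P1.25. RTFL12, of a family of small peptides that restrain cell proliferation, read 9.30, 9.58 and 9.57 in root at P0, 7.87, 7.91 and 7.23 at P1.25 and 6.04, 5.62 and 8.19 at P20. In shoot it read 9.18, 9.22 and 9.18 at P0, 7.77, 7.78 and 8.06 at P1.25 and 6.01, 6.28 and 7.35 at P20, all in order. Its shoot P0 call of 1.32 ± 0.50 (adjusted p = 0.0576) was lost without any 1 P0 array or without P1.25 replicate 1 or 2 (adjusted p of 0.113 to 0.129), and P20 minus P1.25 was -1.32 ± 0.50 (adjusted p = 0.465).

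The remaining genes among the 25 highest scores were known mostly by locus. AT2G43530 read 7.54, 7.48 and 7.60 in root at P0, 4.69, 4.81 and 5.84 at P1.25 and 3.80, 3.59 and 4.52 at P20, and rose by 1.63 ± 0.29 in shoot at P0 (adjusted p = 0.000651). AT1G53625, AT1G36622, AT3G61390, AT5G66650, AT5G44565, AT5G38710 and AT3G61280 had root P0 minus P1.25 of 0.97 to 2.53 and root P1.25 minus P20 of 0.87 to 1.14. In shoot at P0, AT1G53625, AT5G66650, AT5G44565 and AT5G38710 rose, by 1.36 to 2.52, and the other 3 were not called.

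The score did not use the shoot arrays. The fit treated root and shoot arrays of the same replicate number as independent, and a link between them was not tested. In shoot 67 of the 100 genes rose at P0 (adjusted p under 0.1 and above 2-fold), where 6.12% of all rows were called higher. Among the 60 genes named by the platform table it was 39, where 5.99% of such rows were called higher, and among the 40 named by the study it was 28. A single member, AT1G16260, fell, where 7.62% of all rows and 4.07% of platform-named rows were called lower. Shoot P0 minus P1.25 had a median of 1.62 over the set and 1.65 over the 60, against -0.10 over all rows, and the P0 mean was above the P1.25 mean for 93 genes (41.8% of all rows). The 3 P0 arrays lay above the 3 P1.25 arrays for 87 genes (19.2% of all rows) and below them for 4 (26% of all rows). With any single shoot array left out, 54 to 68 genes were called. Without replicate 3 at P1.25 and P20 in both tissues it was 74, where 7.05% of all rows were called. In the same setting 2 genes were called lower (9.15% of all rows). With 3 arrays a side the smallest two-sided p of an exact permutation test is 0.1, so single genes were tested only in the fit across all rows.

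**Figure D5:**
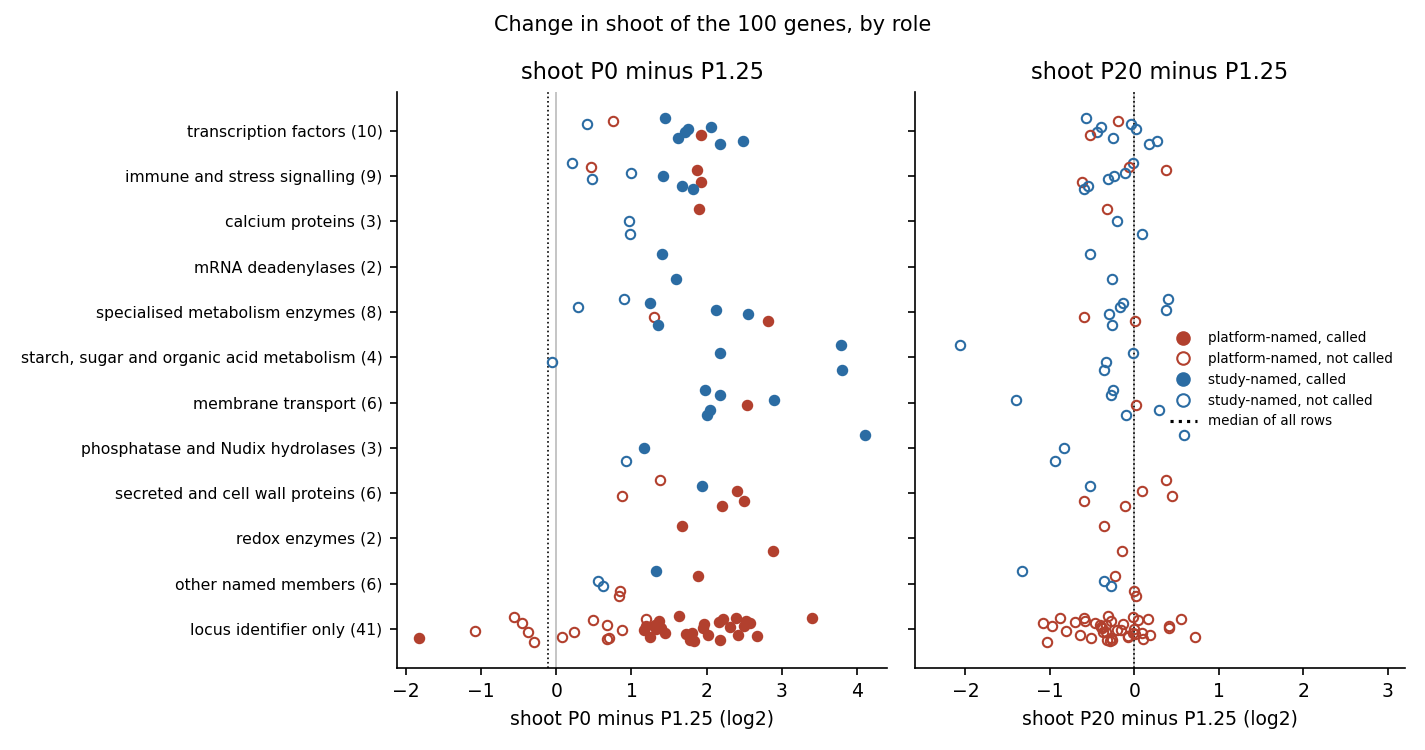
Log2 difference in shoot at P0 (left) and P20 (right) from P1.25 for each of the 100 genes (points), grouped by role with the number of genes in brackets. Filled points were called in the limma fit, colours show which table named the gene, and the dotted line is the median of all rows. Most points on the left lie well above 0 and 67 are called higher, while none is called on the right.

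The 6 genes with the lowest shoot difference at P0 were AT1G16260, AT4G10860, AT3G16530, AT3G61280, AT5G44065 and AT2G26695, and CT-BMY was the only other member below 0. AT1G16260 read 5.55, 5.72 and 5.71 in root at P0, 4.94, 5.15 and 4.68 at P1.25 and 3.93, 4.28 and 4.82 at P20. Its shoot arrays read 5.73, 5.86 and 6.16 at P0, 7.84, 7.72 and 7.65 at P1.25 and 7.03, 6.93 and 7.71 at P20. It fell by 1.82 ± 0.23 in shoot at P0 (adjusted p = 4.66e-05), against a higher level at P0 in root. AT4G10860 had a shoot difference of -1.08 ± 0.51 (adjusted p = 0.122) that passed the limits under 4 of 22 alternatives, all of which left out or weighted arrays (adjusted p of 0.0114 to 0.0961). AT3G16530, a legume lectin-like protein, had 8.18, 8.17 and 8.30 in P0 shoot, against 8.88, 8.39 and 9.06 at P1.25 (-0.56 ± 0.59, adjusted p = 0.507). The others ran between -0.45 and -0.30 and were not called.

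At P20 in shoot, 0 of the 100 genes were called at an adjusted p under 0.1, where limma called 0.026% of all rows higher and 0.0104% lower, and 0 of the platform-named rows lower. At an unadjusted p under 0.05 it was 1 higher and 10 lower, against 1891 higher and 1495 lower of all 38408 rows, and the two-way model without moderation also called 0. Shoot P20 minus P1.25 had a median of -0.26 over the set and -0.22 over the 60 named by the platform table, against -0.002 over all rows. The median of the set was -0.57 without replicate 3 of P20, -0.09 without replicate 1 and -0.04 without replicate 2 of P20, and -0.10 without replicate 3 of P1.25. The P20 mean was below the P1.25 mean for 74 genes, against 50.3% of all rows, and the P20 arrays lay below the P1.25 arrays for 7 genes (5.51% of all rows) and above them for 1 (6.65% of all rows). Without replicate 3 at P1.25 and P20 in both tissues, 26 genes were called lower and 0 higher, where 1.62% and 1.48% of all rows were called. Of the 60 platform-named genes, 17 were called lower then, where 1.67% of such rows were. Without replicate 3 of P20 alone, 6 of the 100 were called lower. Replicate 3 at P20 was singled out after it had read high for these same genes, and leaving it out lowers most of their P20 means. These counts are therefore a description. The SE, which pools root and shoot groups, also differed without replicate 3 at P1.25 and P20. It went from 0.39 to 0.10 for NAC042, from 0.90 to 0.21 for CHX17 and from 0.44 to 0.48 for GPT2. The 26 included 5 of the 9 immune and stress signalling genes, 2 of the 10 transcription factors, 2 of the 6 transport genes and 10 of the 41 genes known by locus, and the median shoot difference of the set was -0.44. Among them, named after their values had been seen, CHX17 stood at -1.84, RTFL12 at -1.64, BAP1 at -1.16, G3Pp1 at -1.12, NAC042 at -1.01 and STZ at -0.92.

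The tissues also differed in level at the same probes. At P1.25 the root mean was above the shoot mean for 63 genes (52.6% of all rows), at P0 for 71 (52.9%) and at P20 for 49 (53.5%). The rule chose genes with high root means at P0 and low ones at P20, and root P1.25 means entered the score too. Neither these counts nor their change with supply is therefore a result. As a description, 9 of the 10 transcription factors were higher in root at P1.25. Marker genes bore out the tissue labels. All 9 root markers with a row, among them CASP1 and EXPA7, were higher in root at P1.25, and 0 of 14 shoot markers, among them LHB1B1 and RCA, were. At P0 6 of the 9 root markers were called lower in root (4.54% of all rows), but these 6 had a name only through the study's tables of P0 changes, and among platform-named root markers it was 0 of 3. In shoot at P0 13 of the 14 shoot markers were called lower (7.62% of all rows), 5 of 6 among those named by the platform. Of the root markers 2 of 9 were called higher in shoot (6.12% of all rows), 0 of 3 among those named by the platform. Their part in the values of the set was not tested.

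Fixed lists of phosphate starvation genes were set beside the members. Of 11 phosphate signalling genes with a row, such as PHF1, WRKY75 and PHO1;H1, 8 were called higher in root at P0 (4.69% of all rows) and 9 in shoot (6.12% of all rows), and of its 4 platform-named genes 2 in root and 2 in shoot. This list had median root differences of 1.85 at P0 and -0.09 at P20. Of 15 lipid remodelling genes, among them the member G3Pp1 beside MGD3, SQD2 and PECP1 and all named by the study's tables, 11 were called higher in root and 14 in shoot, with median root differences of 2.36 at P0 and -0.12 at P20. None of these was called at P20. Most of these rows were named by the study's tables of P0 changes, so their counts are not independent of it. Only G3Pp1, from the lipid list, and PPCK2, from the list of RNases and metabolic bypass enzymes, were members of the set.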

How the data were processed

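Total RNA of root and shoot was measured on 18 AraGene 1.0 ST arrays. The authors normalized the intensities by RMA in Partek Genomics Suite 6.6 and deposited log2 values, 1 column per array, for 38408 rows. These were used as deposited. Probe intensities have no counts, and the number of arrays limits the precision. The genome build was not given in the sources used here, and coordinates and promoter sequences were not used here.

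Rows were named by the platform annotation or, where it had no name, by the study's tables of P0 changes. Rows with several genes (759) were left out. The row with the highest mean over all arrays stood for a gene, and locus texts came from RefSeq. The members, gene lists, roles and tests were chosen with earlier results of these data known.

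limma 3.58.1 in R 4.3.3 fitted 6 group means per row, with 12 residual and 2.43 prior degrees of freedom, and P0 and P20 were each set against P1.25 of the same tissue, so both share the control arrays. The Benjamini-Hochberg adjustment ran over all rows. Following the methods, an adjusted p under 0.1 was a call, with more than 2-fold needed at P0. p-values measure the spread between these replicates, pooled over all 6 groups of a row, also those outside a comparison. Summaries used numpy 2.4.6 and pandas 2.3.3 in Python 3.11.15, and figures matplotlib 3.10.9. The procedure was tested on simulated data with independent normal noise and the same SD for all groups of a row. No array was set apart and no group had a wider spread there, so the simulation does not cover these features of the data.

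Genes named in the text were the 25 highest scores, members of the gene lists, the 6 highest and 6 lowest shoot differences at P0, members called in shoot at P20, genes beside the limit, genes set aside that would have placed, and members that share a family or are neighbours. Others were named for their role after their values had been seen.

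Replicate numbers come from the sample labels. Deviations of same-numbered arrays from their group means correlated at 0.136, 0.130 and 0.291 between shoot P20 and P1.25, at 0.077, 0.127 and 0.225 between root P20 and P1.25, and near 0 for P0. Numbers were thus taken as a possible pairing of P20 with P1.25 within a tissue. The fit behind the reported calls had no replicate block, and the block entered only as an alternative. The alternatives covered the error model, the arrays fitted, a replicate block, the rows tested, the scaling, the threshold and each array left out.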

Additional observations from a re-analysis of the deposited data

Results flagged for a closer look

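For 4 genes the 3 P0 arrays were all above the P1.25 arrays in root and all below them in shoot. In shoot, P0 minus P1.25 was -1.82 for AT1G16260, -1.08 for AT4G10860, -0.56 for AT3G16530 and -0.37 for AT5G44065, and AT1G16260 alone passed the test. In root the same difference was 0.74, 0.99, 1.73 and 1.43. The root values helped to choose these genes, and the difference between the tissues was not tested. In shoot 26% of all rows had every P0 array below the P1.25 arrays, against 4 of the 100 genes.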

How the results depend on the processing

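The count of 67 genes called higher in shoot at P0 ranged from 59 to 78 over the alternatives other than single arrays left out, and 54 to 68 with an array left out (32 to 41 among those named by the platform table). The count called lower in shoot at P0 was 2 with weights per array and 1 to 2 with an array left out. It was also 2 when replicate 3 was dropped at P1.25 and P20 in both tissues (below, without the third arrays). These counts were the same for platform-named genes. The count called lower in shoot at P20, 0 in all arrays, was 1 with a mean-variance trend, without the lowest rows, with identical rows counted once, with quantile scaling and with centring, 2 among rows with 1 gene, 5 with weights per array and 26 without the third arrays. Among platform-named genes it was 1 for rows with 1 gene, 3 with weights per array and 17 without the third arrays. With an array left out it was 0 to 6 (0 to 4 among platform-named genes), and none was called higher. The median shoot difference at P0 was 1.46 to 1.82 and at P20 -0.57 to -0.04 with an array left out.

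Of the 100 genes, 60 to 99 stayed among the 100 highest scores with a root array left out, 60 without the third root arrays, 60 with platform names alone, where other genes took the place of the 40, and 64 with group medians. With the replicate block, which pairs arrays by number, 67 genes were called higher in shoot at P0 in 18 arrays and 66 in 9 shoot arrays, and 0 were called at P20, so the block moved no count beyond 1.5 times. CT-BMY, near 0 in shoot at P0, turned to 0.0014 with quantile scaling, 0.039 with centring and 0.018 without P1.25 replicate 1, within a range of -0.17 to 0.018 with an array left out. The cause of these changes was not tested.

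With 3 arrays a group and replicate 3 at P20 apart from the others, differences at P20 are poorly resolved, and root values of the set cannot serve as a test of its pattern.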
